A study of Mus musculus with 18 samples.

Results

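The genes described here are 10 members of the matrix metalloproteinase (MMP) system that the study's epidermal RNA-seq measured: the metalloproteinases Mmp3, Mmp10, Mmp13, Mmp9, Mmp14, Mmp2 and Mmp28, and the tissue inhibitors Timp1, Timp2 and Timp3. They were taken by gene name from a table of 52636 genes, in which each of the 10 names had 1 row. The samples were keratinocytes from Zfp36 fl/fl mice and from Zfp36 ΔK14 mice, in which a Cre recombinase under the human keratin 14 promoter removes floxed Zfp36 from keratinocytes. The product of Zfp36 is TTP (tristetraprolin), which binds AU-rich elements in mRNAs and speeds their decay. Mock samples came from mock-treated skin, treated samples from nontumoral skin beside papillomas after DMBA, a mutagen that initiates skin tumors, and TPA, a phorbol ester that promotes them, and tumor samples from the papillomas. The mice were C57BL/6 and the controls littermates. The study's methods describe flow sorting of EpCAM+ CD45- CD140a- CD31- cells, whereas the source named in the labels is whole skin. The age of the animals is not given in the labels, and the labels do not tie the samples to separate mice, so p-values measure the spread between these samples. Both genotypes carried the floxed alleles at all 3 stages, and the deletion by Cre follows the keratin 14 promoter, so other cell types keep Zfp36.

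Metalloproteinases are zinc-dependent proteases, made as inactive precursors, that cleave collagens, proteoglycans and other proteins around cells. TIMPs bind the active site of these proteases and block them. In skin, keratinocytes at the edge of wounds and of tumors are known to express several members, fibroblasts express others, and neutrophils store MMP9 in granules. RNA levels do not measure the activity of the proteases, which also depends on cleavage of the precursor and on TIMPs.

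Counts were available for 18 samples, 3 in each of 6 groups. The columns of mock ΔK14 replicates 2 and 3 held identical counts and were used once, which left 17 libraries and n = 2 for mock ΔK14. Total counts ran from 2808550 to 9617985, the lowest being that of fl/fl tumor replicate 1, which also had the fewest genes with a count (19219). Levels are given as CPM, counts scaled to a fixed library total after correction with TMM, a method that allows for differences in RNA composition. Zfp36 was at 10.1 to 38.4 CPM in the 8 ΔK14 libraries and at 152 to 713 CPM in the 9 fl/fl libraries, with no overlap. Summed CPM of 8 keratinocyte markers, Epcam and Krt14 among them, was 6440 to 36200, so keratinocyte markers were expressed in every library. The sum differed within groups. Mock replicate 1 was at 6470 CPM in fl/fl and 6920 CPM in ΔK14, against 22900 to 27300 CPM in the other mock libraries. Summed CPM of 4 melanocyte markers was 217 and 204 there, against 34.8 to 80 in the others. Treated ΔK14 skin held 6440, 9940 and 22000 CPM of keratinocyte markers. The part of these differences in the levels of the members was not tested. In both genotypes, mock replicate 1 differed from its group in several members, and results that rest on it or on fl/fl tumor replicate 1 are given with and without it.

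The sequences shown here are the stretches of the members' promoters and 3′ untranslated regions that hold a motif tied to the study's design. The word TGAGTCA, which reads as TGACTCA when it lies on the opposite strand, is bound by AP-1, a Fos and Jun dimer whose activity TPA is known to raise. RefSeq promoter windows of GRCm38.p6, 250 bases before to 50 bases after the transcription start, were searched on both strands for 8 of the members. Those of Mmp3, Mmp10 and Mmp13 held the word, and those of Mmp14, Mmp28, Timp1, Timp2 and Timp3 did not. It occurred in 5.2% of 32851 promoters, and in 3 of 8 members. The site is in capitals, on the plus strand of chromosome 9:
Mmp3, chr9:7445765-7445793, site at -46 from the start: ggaagcaattaTGAGTCAgttttcgggtg
Mmp10, chr9:7502268-7502296, site at -63: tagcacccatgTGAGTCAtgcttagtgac
Mmp13, chr9:7272468-7272496, site at -35: ccccaaagtggTGACTCAtcactatcatg
The motif match is a description of these windows, and binding was not measured.

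The heptamer TATTTAT is the DNA form of the AU-rich element that TTP is known to bind. It was searched on the sense strand of the longest 3′ untranslated region of each member in the GENCODE vM21 annotation (GRCm38). Mmp13 held 4 heptamers in 1213 bases, Timp3 held 2 in 3604 bases and Mmp9 held 1 in 944 bases. The other 7 members held 0. Among 20939 genes with a 3′ untranslated region, 27.6% held at least 1. The element of Mmp9, the element of Mmp13 nearest its stop codon and its last, and both of Timp3 are shown with the heptamer in capitals:
Mmp9, chr2:164955297-164955326, plus strand: agccctttTATTTATtatgtatgaggttat
Mmp13, chr9:7282128-7282157, plus strand: aaagttgtTATTTATctcccagagagtatt
Mmp13, chr9:7283283-7283312, plus strand: ttagactgTATTTATgttgtttctaataaa
Timp3, chr10:86347546-86347575, plus strand: attatgggTATTTATcctctattagtatca
Timp3, chr10:86349386-86349415, plus strand: ctccatgtTATTTATgaattttatattccg

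Groups were compared with edgeR's quasi-likelihood test over all genes that passed a filter on low counts, with Benjamini-Hochberg adjustment. Calls needed an adjusted p below 0.05 together with a change of more than 2-fold. Mmp9, Mmp10, Mmp13 and Timp1 had so few counts in skin that they passed the filter only in comparisons with tumors, and Mmp3 passed in skin only between mock groups. A member that passes through its tumor libraries alone has to be higher there, so its call in a comparison of tumors with skin adds little to its levels.

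The stromelysins Mmp3 and Mmp10 degrade proteoglycans, laminin and fibronectin and activate other metalloproteinases, and Mmp13 is a collagenase that cleaves fibrillar collagen. All 3 were near 0 in treated skin of both genotypes and became the most abundant members per length in tumors. Mmp13 (ENSMUSG00000050578, chr9:7272514-7283331) was at 0.332, 1.17 and 0.67 CPM in mock fl/fl skin and at 0.27 and 1.44 CPM in mock ΔK14 skin. In treated skin Mmp13 ranged from 0.13 to 0.649 CPM in fl/fl and from 0.169 to 2.34 CPM in ΔK14. The fl/fl tumors held 161, 77.9 and 46.4 CPM of Mmp13, and the ΔK14 tumors 316, 1151 and 1002 CPM. Every tumor library thus lay above every skin library, and every ΔK14 tumor above every fl/fl tumor. Mmp10 (ENSMUSG00000047562, chr9:7502352-7510240) was at 0 to 0.782 CPM in the 11 skin libraries, with 0 counts in all 3 treated fl/fl libraries. It reached 52.1, 22.4 and 28.7 CPM in fl/fl tumors and 67.8, 504 and 610 CPM in ΔK14 tumors, again without overlap between the genotypes. Mmp3 (ENSMUSG00000043613, chr9:7445822-7455975) was at 0.442, 11.9 and 8.58 CPM in mock fl/fl skin and at 0 and 5.03 CPM in mock ΔK14 skin, where replicate 1 was the low library in both genotypes. Treated skin held 0.18 to 1.69 CPM of Mmp3, fl/fl tumors 126, 40.8 and 37.9 CPM and ΔK14 tumors 99.8, 417 and 765 CPM. For Mmp3 the tumor genotypes overlapped, because fl/fl replicate 1 lay above ΔK14 replicate 1.

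**Figure D1:**
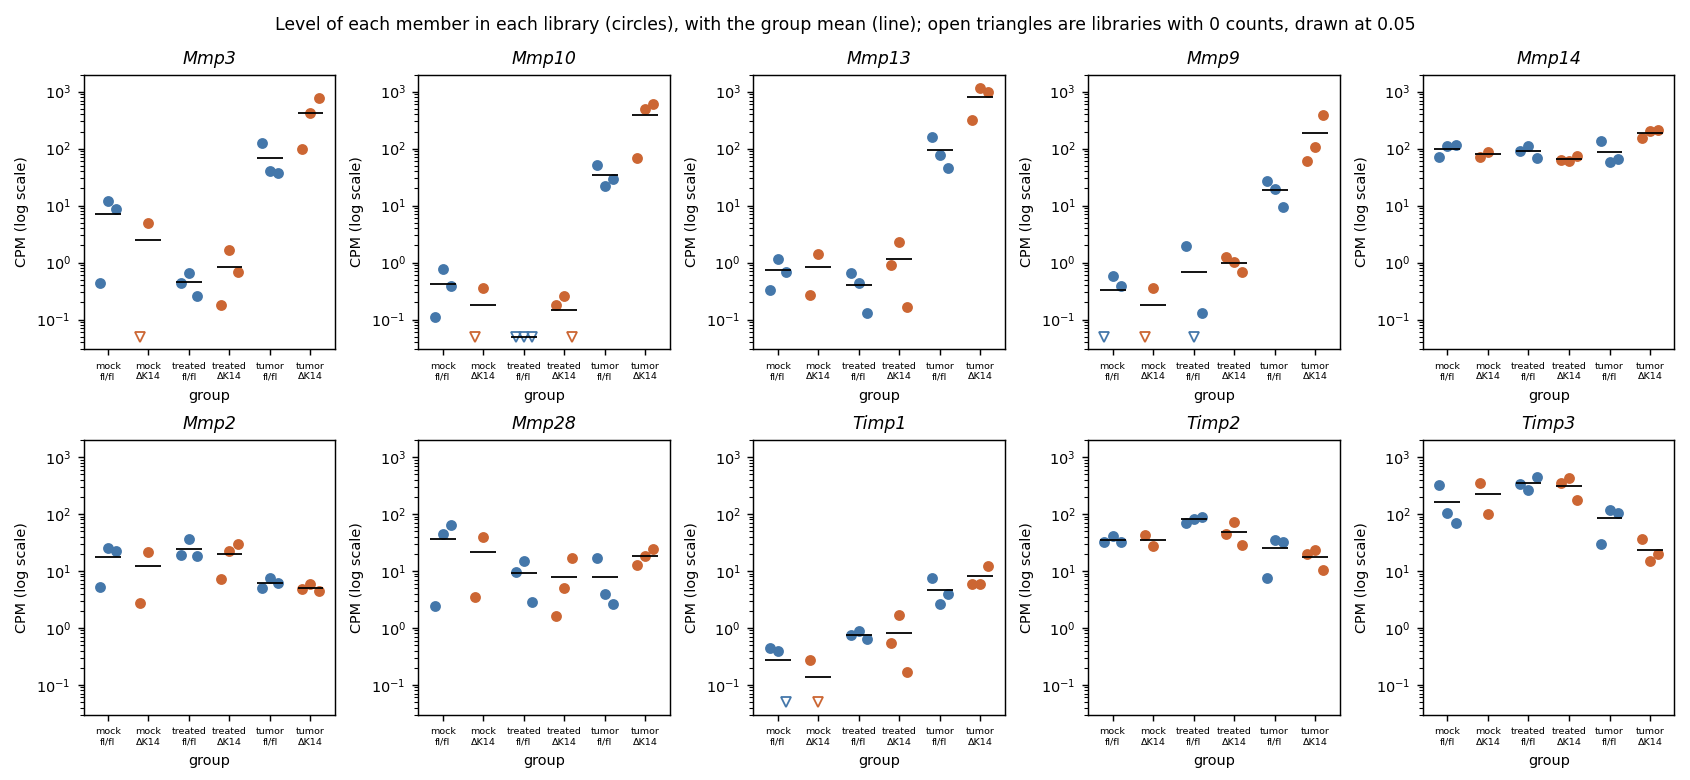
Level of each of the 10 members (CPM, log scale) in each of the 17 libraries (circles, fl/fl blue, ΔK14 orange; open triangles, 0 counts), by stage and genotype, with the group mean as a line. Mmp13 lay at 0.13 to 2.34 CPM in skin and at 46.4 to 1151 CPM in tumors, whereas Timp3 lay at 69.3 to 452 CPM in skin and at 14.7 to 119 CPM in tumors.

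Against treated skin, Mmp3, Mmp10 and Mmp13 were called higher in tumors of both genotypes by edgeR's quasi-likelihood test. For Mmp13 the fold was 210 in fl/fl (log2 7.71 ± 0.66 SE, adjusted p = 0.00116) and 613 in ΔK14 (log2 9.26 ± 0.78 SE, adjusted p = 0.000226). Mmp3 rose 147-fold in fl/fl (log2 7.20 ± 0.68 SE, adjusted p = 0.00121) and 419-fold in ΔK14 (log2 8.71 ± 0.93 SE, adjusted p = 0.000521). Mmp10 had 0 counts in treated fl/fl skin, so its mean in fl/fl tumors was at least 75.3-fold higher than the level of 3 counts in a treated library. In ΔK14 treated skin its 3 libraries held 3 counts together, and the ratio of tumors to skin was 2650 with a 95% counting interval of 905 to 12800. These 6 calls were kept when any of the 6 libraries was left out. Counting intervals used counts pooled over the libraries of a group, so they cover counting error only and leave out the spread between libraries. They may be too narrow even for that, since PCR copies are not independent molecules.

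Mmp9, gelatinase B, cleaves denatured and basement membrane collagen. Mmp9 (ENSMUSG00000017737, chr2:164940780-164955850) had 0 to 0.587 CPM in mock skin and 0 to 1.95 CPM in treated skin. Tumors of fl/fl mice held 27.1, 19.6 and 9.47 CPM, and those of ΔK14 mice 61.4, 108 and 397 CPM. The 2 tumor groups did not overlap, and all 6 tumors lay above all skin libraries. Mmp9 rose 21.6-fold from treated skin to tumors in fl/fl (log2 4.43 ± 0.87 SE, quasi-likelihood adjusted p = 0.0117) and 172-fold in ΔK14 (log2 7.43 ± 0.83 SE, adjusted p = 0.000644), and both calls were kept whichever library was left out. Neutrophils also express Mmp9, so 6 neutrophil markers were read beside it. Their summed CPM was 0 to 0.782 in mock skin and treated fl/fl skin, 0.715 to 6.74 in treated ΔK14 skin, 4.11 to 6.01 in fl/fl tumors and 2.9 to 7.6 in ΔK14 tumors. Most of that sum was Cxcr2, at up to 7.01 CPM, which was called higher in fl/fl tumors than in treated skin (21.7-fold, adjusted p = 0.00523) but not in ΔK14 (2.13-fold, adjusted p = 0.262). The other 5 markers were too low to be tested: Mpo was at most 0.843 CPM, Ly6g 0.501 CPM, Elane 0.39 CPM and Csf3r 0.196 CPM, and Retnlg had 0 counts in all 17 libraries. The part of neutrophils in the level of Mmp9 was not tested.

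Mmp14, a membrane-bound protease that activates the precursor of MMP2, was expressed in all 17 libraries. The gene (ENSMUSG00000000957, chr14:54431612-54445364) was at 72.7, 113 and 116 CPM in mock fl/fl and at 72 and 88.4 CPM in mock ΔK14 skin. Treated skin held 92.6, 110 and 69.4 CPM in fl/fl and 62.7, 60.9 and 73.7 CPM in ΔK14. The fl/fl tumors held 136, 57.7 and 66 CPM and the ΔK14 tumors 151, 200 and 211 CPM. The 3 ΔK14 tumors were thus the highest of all libraries for Mmp14, and the other groups overlapped each other. In ΔK14 mice Mmp14 rose 2.66-fold from treated skin to tumors (log2 1.41 ± 0.18 SE, quasi-likelihood adjusted p = 0.00104), a call that no left-out library removed. In fl/fl mice the log2 difference was -0.11 ± 0.34 SE (adjusted p = 0.832), and it ran from -0.57 to 0.14 when libraries were left out.

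Mmp2, gelatinase A, and Mmp28, epilysin, a protease known from epidermis, were not called higher in tumors by the quasi-likelihood test with its low-count filter and all libraries. Mmp2 (ENSMUSG00000031740, chr8:92827291-92853420) was at 18.7, 36.1 and 18.5 CPM in treated fl/fl and at 7.33, 22.2 and 29.7 CPM in treated ΔK14 skin. Its tumor levels were close together, 5.01, 7.46 and 6.2 CPM in fl/fl and 4.91, 5.79 and 4.36 CPM in ΔK14, and they lay below every treated library of the same genotype. Mmp2 fell 3.85-fold in fl/fl (log2 -1.94 ± 0.34 SE, quasi-likelihood adjusted p = 0.00782) and 4.19-fold in ΔK14 (log2 -2.07 ± 0.47 SE, adjusted p = 0.0101), and it was called without each library in turn. In a single fit of all libraries the fl/fl call was lost (adjusted p = 0.0577). In mock skin Mmp2 was at 5.31, 25 and 22.6 CPM in fl/fl and at 2.7 and 21.6 CPM in ΔK14, with replicate 1 low in both. Mmp28 (ENSMUSG00000020682, chr11:83440768-83463071, minus strand) varied widely within groups. It was at 2.43, 43.6 and 63.8 CPM in mock fl/fl skin and at 3.51 and 38.8 CPM in mock ΔK14 skin. Treated skin held 1.61 to 17 CPM of Mmp28, fl/fl tumors 16.5, 3.96 and 2.61 CPM and ΔK14 tumors 12.7, 18.3 and 24.5 CPM. Mmp28 was called in none of the 9 pairwise comparisons under these settings. An exon of 1700020L24Rik on the opposite strand shares 466 bases with Mmp28, and its counts were 8.99% to 22.7% of those of Mmp28 in the 14 libraries with at least 20 counts. Use of strand in the counting is not given in the sources used here, so reads in that stretch cannot be told apart.

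The 3 inhibitors moved in different directions. Timp1, a secreted inhibitor induced by growth factors and cytokines, was low everywhere. Timp1 (ENSMUSG00000001131, chrX:20870166-20874735) was at 0 to 0.442 CPM in mock skin and at 0.169 to 1.69 CPM in treated skin, against 7.51, 2.59 and 3.92 CPM in fl/fl tumors and 5.8, 5.98 and 12.3 CPM in ΔK14 tumors. All tumors lay above all skin libraries, while the tumor genotypes overlapped. From treated skin to tumors Timp1 rose 5.53-fold in fl/fl (log2 2.47 ± 0.54 SE, quasi-likelihood adjusted p = 0.0165) and 8.52-fold in ΔK14 (log2 3.09 ± 0.64 SE, adjusted p = 0.00682).

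Timp2, which inhibits and also helps MMP14 to activate MMP2, fell. Timp2 (ENSMUSG00000017466, chr11:118301069-118355740, minus strand) was at 70.5, 82.6 and 88.5 CPM in treated fl/fl and at 43.6, 73.4 and 28 CPM in treated ΔK14 skin. The fl/fl tumors held 7.51, 35 and 32 CPM and the ΔK14 tumors 19.4, 23.4 and 10.4 CPM, below the treated libraries of their genotype. The decrease was 3.2-fold in fl/fl (log2 -1.68 ± 0.46 SE, quasi-likelihood adjusted p = 0.0326) and 2.95-fold in ΔK14 (log2 -1.56 ± 0.42 SE, adjusted p = 0.0195).

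Timp3, which binds the extracellular matrix and also inhibits ADAM proteases, was the most abundant inhibitor in skin. Timp3 (ENSMUSG00000020044, chr10:86300372-86349506) stood at 320, 105 and 69.3 CPM in mock fl/fl and at 348 and 102 CPM in mock ΔK14 skin, where replicate 1 was high in both genotypes. Treated skin held 333, 268 and 452 CPM in fl/fl and 352, 420 and 174 CPM in ΔK14. The fl/fl tumors held 29.6, 119 and 106 CPM and the ΔK14 tumors 37, 14.7 and 19.5 CPM, and the fl/fl tumor at 29.6 CPM was replicate 1. Timp3 fell 4.18-fold from treated skin to fl/fl tumors (log2 -2.06 ± 0.48 SE, quasi-likelihood adjusted p = 0.0203) and 14.3-fold to ΔK14 tumors (log2 -3.84 ± 0.46 SE, adjusted p = 0.000892). An exon of Syn3 on the opposite strand shares 1733 bases with Timp3, including the heptamer nearest its 3′ end. Counts of Syn3 were 39% to 45.5% of those of Timp3 in all 17 libraries, and the reads of these genes cannot be told apart without strand.

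In these comparisons with treated skin the calls for Mmp3, Mmp9, Mmp10, Mmp13 and Mmp2 were kept when any library was left out, but those for the inhibitors were not. In fl/fl, the call for Timp1 was lost without treated replicate 1, 2 or 3 (adjusted p up to 0.0828 in the quasi-likelihood test). That for Timp2 was lost without treated replicate 1, 2 or 3 or tumor replicate 3 (up to 0.0986). That for Timp3 was lost without treated replicate 1 or 3 or tumor replicate 3 (up to 0.0702). Thus 5 of the 8 calls in fl/fl were left without treated replicate 1, where 7.21% of 15337 genes were called, or without treated replicate 3, where 9.91% of 15308 were. In ΔK14 mice the call for Timp2 was lost without treated replicate 2 or tumor replicate 3 (up to 0.076), and those for Timp1 and Timp3 were kept throughout.

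Fibroblasts are a known source of Mmp2, Mmp14, Timp2 and Timp3, and 9 fibroblast markers were read beside them. Their summed CPM was 525 to 1730 in mock skin, 398 to 964 in treated skin, 87.5 to 206 in fl/fl tumors and 34.9 to 420 in ΔK14 tumors. No marker was at 0 in all libraries of a group. From treated skin to fl/fl tumors 3 of the 8 markers tested were called lower (Dcn, Pdgfra and Col6a3), where 10.5% of genes were. Their median log2 fold change was -1.11 over the 8 tested. In ΔK14, 1 of 8 (Dcn) was called lower, where 15.5% of genes were, with a median of -0.01. Dcn, chosen after its values were seen, was at 164 to 839 CPM in treated skin and at 0.19 to 10 CPM in tumors. In the replicate 1 libraries of mock skin, where Timp3 was high, Dcn was at 842 and 973 CPM, against 46.9 to 96.8 CPM in the other 3, but the marker sum was not apart (1370 and 1040, against 525 to 1730) and Col1a1 was at 257 and 28.6 CPM, against 226 to 724 CPM. The part of these markers in the lower Mmp2, Timp2 and Timp3 of tumors was not tested, and fewer cells of a type cannot be told apart from less RNA per cell in these samples.

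In total, from treated skin to fl/fl tumors 5 members were called higher (Mmp3, Mmp9, Mmp10, Mmp13, Timp1), where 7.5% of 15362 genes were called higher. All 5 passed the low-count filter through their tumor libraries, so the filter fixed the direction of these calls. Their number cannot be read against that share. The 3 called lower were Mmp2, Timp2 and Timp3, where 10.5% of genes were called lower. In ΔK14 mice 6 members were called higher, the same 5 and Mmp14, where 10.5% of 15289 genes were. The limit above holds for the 5, whereas Mmp14 passed the filter in skin too. The 3 called lower were again Mmp2, Timp2 and Timp3, where 15.5% of genes were called lower. Mmp28 was called in neither genotype. It was at log2 1.15 ± 0.63 SE in ΔK14 (adjusted p = 0.185 in the quasi-likelihood test). That test called it higher there without treated replicate 3 (adjusted p = 0.00726), without the low-count filter (0.000834) and with the replicate number as a block (0.0452). It was not called with DESeq2 (0.136) or in a single fit (0.417).

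**Figure D2:**
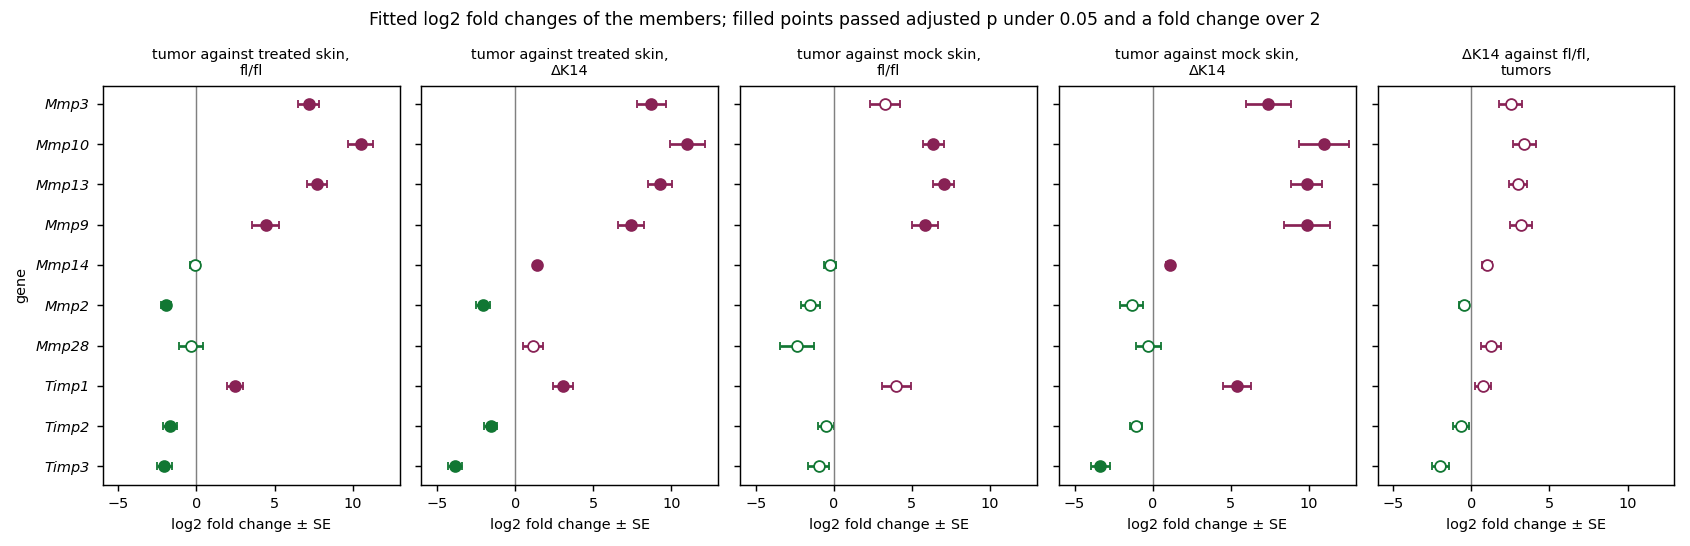
Fitted log2 fold change (x axis, bars are SE) of each member (y axis) in 4 comparisons of tumors with skin and in the comparison of tumor genotypes; filled points were called. Mmp9, Mmp10 and Mmp13 lay at 4.43 or more in all 4 comparisons with skin, and no point was filled between tumor genotypes; values against groups with few counts, such as Mmp10, depend on the prior count.

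Against mock skin, 3 members were called higher in fl/fl tumors, Mmp9, Mmp10 and Mmp13, where 2.22% of 15394 genes were called higher. These 3 passed the filter through their tumor libraries, so the filter fixed the direction of their calls. In the other direction 0 members were called lower, against 1.88% of genes. Mmp13 rose 131-fold (log2 7.04 ± 0.67 SE, adjusted p = 0.00671), Mmp10 82.1-fold (log2 6.36 ± 0.67 SE, adjusted p = 0.00736) and Mmp9 57.2-fold (log2 5.84 ± 0.86 SE, adjusted p = 0.0184) in the quasi-likelihood test. The call for Mmp9 was lost without mock replicate 2 or 3 or tumor replicate 2 or 3 (adjusted p up to 0.0842). Timp1 (log2 3.99 ± 0.93 SE, adjusted p = 0.0552) and Mmp3 (log2 3.26 ± 0.98 SE, adjusted p = 0.0925) missed the threshold, although no tumor library overlapped a mock library. When mock fl/fl replicate 1 was left out, 7 members were called, against 21% of 15636 genes. The 4 added were Mmp3 and Timp1, which were higher in tumors, and Mmp2 and Mmp28, which were lower.

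Between mock skin and ΔK14 tumors, 6 members were called higher, where 7.05% of 15027 genes were, and Timp3 was called lower, where 7.22% were. Of the 6, all but Mmp14 passed the filter through their tumor libraries, so the filter fixed the direction of their calls. Mmp13 rose 938-fold (log2 9.87 ± 0.99 SE, quasi-likelihood adjusted p = 0.00608) and Mmp3 170-fold (log2 7.41 ± 1.45 SE, adjusted p = 0.0249). Mock ΔK14 skin held 1 count each of Mmp9, Mmp10 and Timp1. The ratio of tumors to mock skin was 1260 for Mmp9 (95% counting interval 226 to 49800), 2680 for Mmp10 (481 to 106000) and 52.7 for Timp1 (9.28 to 2100). Mmp14 rose 2.19-fold (log2 1.13 ± 0.27 SE, adjusted p = 0.0391) and Timp3 fell 10.1-fold (log2 -3.34 ± 0.61 SE, adjusted p = 0.0208). Timp2 was lower without overlap but was not called (log2 -1.06 ± 0.41 SE, adjusted p = 0.122). With mock n = 2 these calls depended on single libraries: of 7, 3 were left without tumor replicate 1, 1 (Mmp13) without tumor replicate 2 and 3 without tumor replicate 3, where 2.75%, 0.709% and 1.51% of genes were called, as the calls for Mmp3, Mmp14, Timp1 and Timp3 were lost in each case. Their adjusted p went up to 0.0955, 0.177, 0.0646 and 0.0958, and without tumor replicate 2 Mmp9 and Mmp10 missed the threshold too (0.0618 and 0.0629). Without mock replicate 1 Mmp2 and Mmp28 were called lower as well, and without mock replicate 2 Timp2 was called lower and Mmp28 higher, in fits with 1 mock library that was assumed to vary like the tumors.

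Between genotypes in tumors, the members with the highest tumor levels were higher in ΔK14 mice, but 0 of 10 members were called by the quasi-likelihood test, where 0.0284% of 14067 genes were called. At an unadjusted p under 0.05 there were 6 members, where 14% of genes were. The members below that level were Mmp3, Mmp9, Mmp10, Mmp13, Mmp14 and Timp3. Mmp10 was 10.5-fold higher (log2 3.40 ± 0.74 SE, adjusted p = 0.183), Mmp9 9.22-fold (log2 3.20 ± 0.71 SE, adjusted p = 0.183) and Mmp13 7.93-fold higher (log2 2.99 ± 0.58 SE, adjusted p = 0.175). Those for Mmp3 and Mmp14 were 5.77-fold (log2 2.53 ± 0.73 SE, adjusted p = 0.237) and 1.99-fold (log2 0.995 ± 0.33 SE, adjusted p = 0.26). Timp3 was 3.98-fold lower in ΔK14 (log2 -1.99 ± 0.55 SE, adjusted p = 0.228), with overlap at fl/fl replicate 1. Every ΔK14 tumor lay above every fl/fl tumor for 4 members (Mmp9, Mmp10, Mmp13 and Mmp14), as for 13.7% of genes, and below for 0, as for 4.23% of genes. Timp1, Timp2, Mmp2 and Mmp28 had log2 differences of 0.74, -0.66, -0.47 and 1.26, with adjusted p between 0.399 and 0.603. The median over the members was 1.13 on the log2 scale, and over all genes tested -0.02.

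The count of members called between tumor genotypes depended on fl/fl tumor replicate 1. That library lay nearest the ΔK14 tumors for Mmp3 (126 CPM), Mmp14 (136 CPM), Mmp28 (16.5 CPM), Timp2 (7.51 CPM) and Timp3 (29.6 CPM). It also lay nearest them for Mmp9 (27.1 CPM), Mmp10 (52.1 CPM) and Mmp13 (161 CPM). For Mmp2 (5.01 CPM) and Timp1 (7.51 CPM) it lay nearest their mean. Its summed keratinocyte markers were also nearer theirs, 36200 CPM against 12300 and 13200 CPM in the other fl/fl tumors and 28900 to 30300 CPM in the ΔK14 tumors, and the part of this in the results was not tested. Without it 8 members were called, all but Mmp2 and Timp1, but so were 16.9% of 15463 genes. DESeq2's Wald test on all 6 libraries called 5 members (Mmp3, Mmp9, Mmp10, Mmp13, Timp3), where it called 2.79% of 16165 genes. A single edgeR fit of all 17 libraries called Mmp10 and Mmp13, where it called 0.668% of 18252 genes. Without the low-count filter 7 members were called, where 4.27% of 32605 genes were. Leaving out ΔK14 tumor replicate 1, the lowest of its group for Mmp3, Mmp9, Mmp10, Mmp13 and Mmp14, gave 1 call, Mmp10, where 0.0455% of 15398 genes were called. The direction of the 6 members named above was the same in all of these fits.

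Whether the change from skin to tumor itself differed between genotypes was tested as an interaction. The quasi-likelihood test called 0 members against mock skin, where it called 0% of 17388 genes, and 0 members against treated skin, where it called 0.0118% of 17017 genes. At an unadjusted p under 0.05 there were 5 members against mock skin, where 8.18% of genes were, and 3 against treated skin, where 13.2% were. For Mmp14, called higher in tumors than in treated skin in ΔK14 but not in fl/fl, the ratio of the folds was 2.9 (log2 1.54 ± 0.40 SE, quasi-likelihood adjusted p = 0.207). For Mmp9 the ratio of the folds was 8.34 (log2 3.06 ± 1.36 SE, adjusted p = 0.364), and for Timp3 the fall was 3.39-fold larger (log2 -1.76 ± 0.69 SE, adjusted p = 0.31). DESeq2 called Mmp14 against treated skin, where it called 1.22% of 17325 genes, and 0 members against mock skin, where it called 0.163% of 18422 genes. Without fl/fl tumor replicate 1, Mmp14 and Timp3 were called against treated skin in the quasi-likelihood test, with an adjusted p of 0.00209 for Mmp14 and 0.0326 for Timp3, where 7.53% of 17951 genes were called.

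Outside tumors no member was called between genotypes. In mock skin the quasi-likelihood test did not call Zfp36 either, although it was 17.5-fold lower in ΔK14 without overlap (log2 -4.127 ± 0.865 SE). The absence of calls there, with n = 2 for ΔK14, thus does not show equal levels. In mock skin 6 members could be tested and 0 were called, where 0% of 15920 genes were. Of these genes 253 had an unadjusted p under 0.05, against 0 of the members. Their log2 differences ran from -1.48 for Mmp3 to 0.41 for Timp3, and their SE was 1.73 for Mmp3, 1.45 for Mmp28, 1.02 for Mmp2, 0.85 for Timp3 and about 0.31 for Mmp14 and Timp2. Without mock replicate 1 of both genotypes the SE of these 6 members was 0.19 to 0.45, and 0 were called. In treated skin 5 members could be tested and 0 were called by the quasi-likelihood test, where 0.00616% of 16232 genes were. Timp2 was lower in ΔK14 by log2 -0.75 ± 0.32 SE and Mmp14 by -0.48 ± 0.19 SE (adjusted p = 0.897 for both in the quasi-likelihood test). These were the 2 members with an unadjusted p under 0.05, where 901 of 16232 genes had one, and the groups of both members overlapped. DESeq2 called 0 members between genotypes in mock skin and in treated skin, where it called 0.00918% and 0.196% of genes.

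From mock to treated skin, Timp2 in fl/fl mice went from 32.1, 41.3 and 32.6 CPM to 70.5, 82.6 and 88.5 CPM. The groups did not overlap, and the fold was 2.3 (log2 1.20 ± 0.19 SE), but the quasi-likelihood test did not call it (adjusted p = 0.269). Timp2 was the 1 member with an unadjusted p under 0.05, where 913 of 16601 genes had one. The quasi-likelihood test called 0 of the 5 members tested, where 0% of 16601 genes were called. DESeq2 called Timp2 and Mmp3, where it called 0.652% of 18718 genes. Without mock replicate 1 the quasi-likelihood test called 4 members, Timp2 and Timp3 as higher and Mmp3 and Mmp28 as lower in treated skin, where 15.1% of 17103 genes were called. In ΔK14 mice 0 of 5 members were called, where 0% of 15891 genes were. At an unadjusted p under 0.05 there were 0 members, where 763 of these genes were. DESeq2 also called 0 members there, where it called 0.434% of 15447 genes. Timp2 in mock ΔK14 skin was at 42.4 and 26.9 CPM and overlapped treated ΔK14 skin, at 28 to 73.4 CPM.

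Levels of different genes were compared per length, as RPKM, CPM per kilobase of exon. In treated fl/fl skin the order was Timp3 (43.1 ± 11.5 RPKM, SD, n = 3), Timp2 (20.7 ± 2.35), Mmp14 (15.2 ± 3.41), Mmp2 (7.24 ± 2.99) and Mmp28 (2.35 ± 1.55), with the other 5 below 1 RPKM. Of these neighbours, the ranges of mean ± SD overlapped for Timp2 and Mmp14 alone. Mock fl/fl skin gave Timp3 (20.3 ± 16.6 RPKM), Mmp14 (16.8 ± 4.02), Mmp28 (9.45 ± 8.07), Timp2 (9.06 ± 1.33), Mmp2 (5.23 ± 3.19) and Mmp3 (3.88 ± 3.28), and each overlapped the next. In fl/fl tumors it was Mmp3 (37.8 ± 27.7 RPKM), Mmp13 (35.6 ± 22.2), Mmp10 (20 ± 9.09), Mmp14 (14.5 ± 7.19) and Timp3 (10.4 ± 5.95), and here too each overlapped the next. In ΔK14 tumors the order was Mmp13 (308 ± 167 RPKM), Mmp3 (237 ± 185), Mmp10 (229 ± 167), Mmp9 (53.4 ± 51.4) and Mmp14 (31.4 ± 5.38), and each overlapped the next. Among the inhibitors in ΔK14 tumors Timp1 had the highest mean, 9.05 ± 4.18 RPKM, which overlapped Timp2 (4.55 ± 1.7), and Timp3 was at 2.92 ± 1.45 RPKM.

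Summed over the 7 metalloproteinases, the level was 13.9 to 47.9 RPKM in the 11 skin libraries. Tumors of fl/fl mice held 197, 83.2 and 71.3 RPKM and ΔK14 tumors 260, 1030 and 1310 RPKM, so the tumor genotypes did not overlap in this sum. The 3 inhibitors summed to 16.9 to 78.9 RPKM in skin, to 14, 26.6 and 25.6 RPKM in fl/fl tumors and to 16.1, 14.5 and 19 RPKM in ΔK14 tumors. The ratio of summed inhibitors to summed proteases was 0.353 to 4.36 in skin, 0.0711 to 0.359 in fl/fl tumors and 0.0141 to 0.0619 in ΔK14 tumors. Mock fl/fl replicate 3, at 0.353, was the skin library that overlapped the fl/fl tumors. Timp3 made up 50.4% to 81.8% of the inhibitor sum in skin, 25.9% to 55.2% in fl/fl tumors and 12.4% to 28.3% in ΔK14 tumors. These sums, ratios and shares include the Timp3 reads that cannot be told apart from Syn3. They also depend on the exon lengths used, 8144 bases for Timp3 and 888 for Timp1, as does the order of these genes in ΔK14 tumors.

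**Figure D3:**
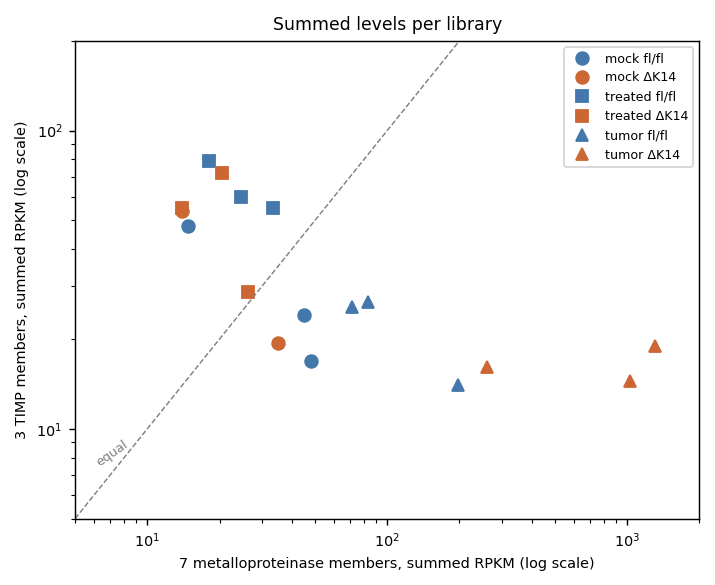
Summed RPKM of the 3 TIMPs (y axis, log scale) against that of the 7 metalloproteinases (x axis, log scale), 1 point per library, with stage as the symbol and genotype as the color; the dashed line marks equal sums. All 6 tumors and 3 mock libraries lie to the right of the line, and ΔK14 tumors lie farthest to the right, at 260 to 1310 RPKM of metalloproteinases.

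Mmp13, Mmp3 and Mmp10 lie in a cluster of metalloproteinase genes on chromosome 9, with the start of Mmp13 at -173.3 kb and that of Mmp10 at 56.5 kb from the start of Mmp3. Of the other genes of this cluster, Mmp12, macrophage elastase, and Mmp1b, a rodent collagenase-like gene, were called higher in tumors in all 4 comparisons with skin. Mmp12 was at 0 to 0.757 CPM in skin, at 11, 15.5 and 12.7 CPM in fl/fl tumors and at 14.9, 90.2 and 69.8 CPM in ΔK14 tumors. Mmp1b had 1 count in all 11 skin libraries together and was at 5.01, 3.65 and 3.27 CPM in fl/fl and at 7.59, 27.9 and 51 CPM in ΔK14 tumors. Mmp1a, chosen after its values were seen, had 0 counts in skin and 0.457 to 13.8 CPM in tumors. Exons of Mmp12 and Mmp1b share 157 bases on opposite strands, and Mmp1a and Mmp1b are similar genes, so their counts are uncertain. At the other end of the cluster Mmp7, also chosen after its values were seen, had 0 counts in all 17 libraries, and Mmp8, chosen likewise, was at most 0.724 CPM.

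**Figure D4:**
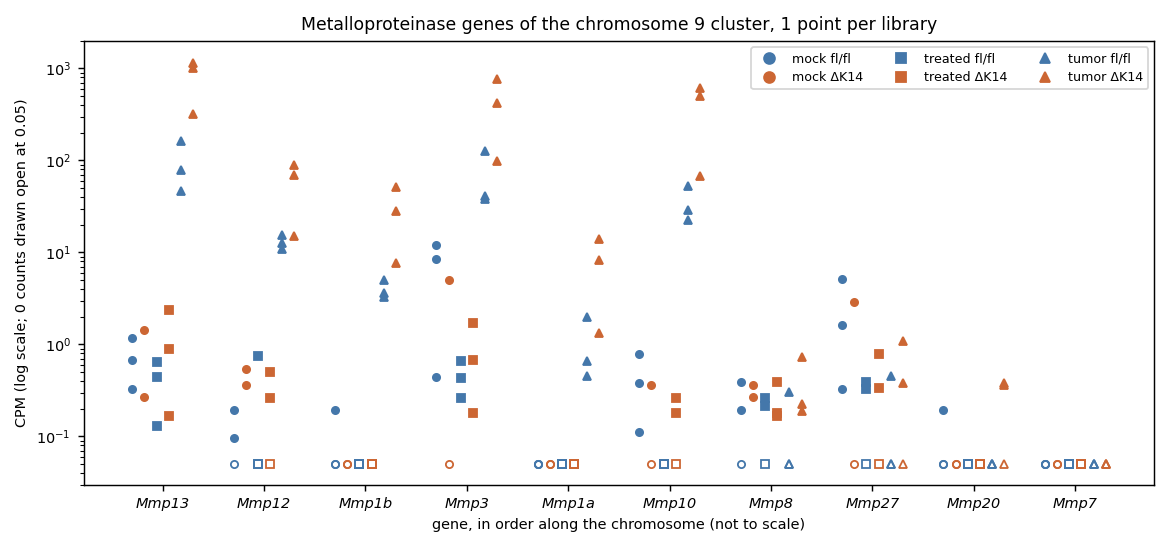
CPM (log scale) of the 10 metalloproteinase genes of the chromosome 9 cluster in their order along the chromosome, 1 point per library, with stage as the symbol and genotype as the color; open symbols are libraries with 0 counts. The 6 genes from Mmp13 to Mmp10 had higher levels in tumors than in treated skin, whereas Mmp7 had 0 counts in all libraries.

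Of 17 other metalloproteinase and TIMP genes, 4 to 7 passed the low-count filter in any of the pairwise comparisons. Mmp12 and Mmp1b were the 2 called higher in each of the 4 comparisons of tumors with skin, where 2.22% to 10.5% of genes were. Both passed the filter there through their tumor libraries, so the filter fixed the direction of these calls. None of the 17 was called lower, where 1.88% to 15.5% of genes were. The median log2 fold change of those tested ran from 0.24 to 0.90 in these 4 comparisons. Between tumor genotypes 5 of the 17 were tested and 0 were called, where 0.0284% of genes were. Mmp1b and Mmp12, 2 of the 5, had an unadjusted p under 0.05, where 14% of genes had.

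A list of 16 genes that activate, inhibit, bind or regulate metalloproteinases was read in the same way. From treated skin to fl/fl tumors 5 of 14 tested were called higher and 3 lower, where 7.5% and 10.5% of genes were. Their median log2 fold change was 0.94. In ΔK14, 9 of 13 tested were called higher and 1 lower, where 10.5% and 15.5% of genes were, with a median of 1.32. Cd44, a receptor for hyaluronan that can hold MMP9 at the cell surface, rose 3.19-fold in fl/fl and 3.53-fold in ΔK14 (quasi-likelihood adjusted p = 0.00221 and 0.00255). Plaur, the receptor for urokinase, rose 16.2-fold and 16.1-fold (adjusted p = 0.00264 and 0.00115). Lrp1, a scavenger receptor that takes up metalloproteinases, fell 2.22-fold in fl/fl (log2 -1.15 ± 0.19 SE, adjusted p = 0.00602), whereas in ΔK14 its log2 difference was 0.94 ± 0.25 SE (adjusted p = 0.0189), a fold under the threshold for a call. Between tumor genotypes Lrp1 was 2.99-fold higher in ΔK14 without overlap and was not called (log2 1.58 ± 0.28 SE, adjusted p = 0.167). Also called in fl/fl were Serpine2 and the MMP9-binding protein Lcn2, which rose, and Spock2 and the inhibitor Reck, which fell. In ΔK14 the 1 called lower was Spock2. Lcn2 was uneven in fl/fl tumors, at 5.51 to 615 CPM, against up to 5.25 CPM in treated fl/fl skin. The ΔK14 tumors held 25.8 to 49.5 CPM of Lcn2. Between tumor genotypes it overlapped and was not called (log2 -3.26 ± 1.14 SE, quasi-likelihood adjusted p = 0.274). Furin, which cleaves the precursor of MMP14, rose 2.49-fold in ΔK14 (log2 1.32 ± 0.16 SE, adjusted p = 0.000856), as did the protease inhibitor Serpine2 (14.9-fold, adjusted p = 0.000521). Against mock skin 3 of 13 tested were called higher in fl/fl, Cd44 and Lcn2 among them, and 1 (Lrp1) lower, where 2.22% and 1.88% of genes were. In ΔK14, 7 of 13 tested were called higher and 1 (Spock2) lower, where 7.05% and 7.22% of genes were. Lcn2, Reck and Spock2 are partly named after their values were seen. Between tumor genotypes 12 were tested and 0 were called, where 0.0284% of genes were, with a median log2 difference of 0.48. Of the 12, 6 had an unadjusted p under 0.05, where 14% of genes had.

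The genes whose level followed each member most closely were found by the mean absolute difference of centred log2 CPM over the 17 libraries, among 18252 genes. Mmp10 and Mmp13 were nearest to each other, at 0.493 log2 units, and Mmp10 and Mmp13 were also the nearest to Mmp3, at 0.89 and 1.05. Next after those came Csf3, a neutrophil growth factor, for Mmp10 (0.648) and the cytokine Il24 for Mmp13 (0.807), and Il19, of the same cytokine family, was nearest to Mmp9 (0.659). For Mmp14 the nearest were Gpc1 (0.165) and Zmat3 (0.196), and for Mmp28 Clca2 (0.237) and Slitrk6 (0.281). Timp1 was followed by Anxa3 (0.329), Timp2 by Nlgn2 (0.277) and Mmp2 by Ephb6 (0.346). For Timp3 it was Syn3 (0.051), with the shared exon described above, and then Creb5 (0.314). The distances are over libraries that share the same differences between stages, and they carry no test.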

How the data were processed

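RNA-seq counts of keratinocytes were analyzed in 18 samples of 6 groups (mock, treated, tumor; fl/fl and ΔK14). The authors deposited raw counts per gene, from libraries made with the Ovation SoLo kit. The submitters' processing notes name Trimmomatic 0.36, STAR 2.5.3, HTSeq 0.9.1, DESeq2 and mm10, and the table is named for featureCounts. The annotation, the strand setting and any duplicate removal are not given in the sources used here, so values of overlapping genes and near-identical copies are uncertain. Tables of the authors' own comparisons hold fold changes and p-values and were not used.

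The tools were edgeR 4.0.16, DESeq2 1.42.0 and limma 3.58.1, run under R 4.3.3. A comparison took the libraries of its own groups, with filterByExpr, TMM and edgeR's two-sided quasi-likelihood F test with Benjamini-Hochberg adjustment over all genes tested. The standard error is the absolute log2 fold change divided by the square root of F. CPM used TMM-scaled totals over 17 libraries, and RPKM the union exon length of GENCODE vM21 (GRCm38). Bounds used a floor of 3 counts. Totals of 2808550 to 9617985 counts limit precision for members near 0.

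The members, lists and tests were chosen with earlier results of these data known. Named were all members, Zfp36, called genes of the 2 lists (up to 5 per list and comparison by smallest p) and the 2 nearest genes of each member, not all of which are reported. The alternatives were RLE scaling, no low-count filter, DESeq2, a single fit, the replicate number as a block, the identical columns as 2 libraries, mock replicate 1 left out in both genotypes, and each library left out in turn. The tests were checked on simulated data.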

Additional observations from a re-analysis of the deposited data

How the results depend on the processing

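Replicate numbers shared by the groups were checked as pairs. No comparison with 3 pairs had a correlation over 0.1 in all of them, so a pairing was not shown. The 2 pairs of mock skin correlated at 0.782 and 0.568, and the block there raised the genes called from 0 to 110 but no member. With a replicate block, 0 members were called between tumor genotypes, where 0 of 14067 genes were. From mock skin to fl/fl tumors 2 were called, where 244 of 15394 genes were, and from treated skin 7, where 1831 of 15362 were. From mock skin to ΔK14 tumors 6 were called, where 938 of 15027 genes were. From treated skin to ΔK14 tumors 10 were called (Mmp28 added, quasi-likelihood adjusted p = 0.0452), where 3879 of 15289 genes were. The block turned the uncalled Mmp28 to log2 0.033 between genotypes in mock skin and to 0.150 in ΔK14 tumors against mock skin. It turned Mmp2 to log2 0.040 in the interaction with treated skin.

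Counts of called members moved by over 1.5 times as follows, and the genes called in the same fits moved too. Between tumor genotypes 0 members became 7 without the low-count filter, 5 with DESeq2 and 2 in a single fit, and 0 to 8 with libraries left out. From mock to treated fl/fl skin 0 became 2 with DESeq2 and 0 to 4 with libraries left out. From mock skin to fl/fl tumors 3, where 632 of 15394 genes were called, became 6 without the filter, where 2595 of 33968 were. They became 5 with DESeq2, where 2383 genes were called, and 5 in a single fit, where 3205 of 18252 were. With libraries left out they ran from 2 to 7, where 30 to 3277 genes were called. For treated skin against fl/fl tumors the left-out range was 5 to 8 (of 8), where 1106 to 4138 genes were called. For ΔK14 tumors against treated skin it was 8 to 10 (of 9), where 2823 to 4773 genes were called. For ΔK14 tumors against mock skin it was 1 to 3 (of 7) with tumor libraries left out, where 101 to 406 genes were called. The interaction with mock skin gave 4 calls without the filter, where 188 of 36019 genes were called. That with treated skin gave 3 without the filter, where 1003 of 36391 genes were called, and 1 with DESeq2, where 1.22% were. With libraries left out it gave 0 to 2, where 0 to 1352 genes were called. The cause was not tested. Genotype comparisons in mock and treated skin and ΔK14 treated against mock skin stayed at 0 members in every alternative run.

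No called member changed direction. Members that were not called did when libraries were left out, with these ranges of log2 fold changes. Between genotypes in mock skin they were Mmp28 -3.38 to 0.119, Timp2 -0.384 to 0.231, Mmp2 -2.709 to 0.319 and Timp3 -0.729 to 1.411. Between genotypes in treated skin they were Mmp2 -0.667 to 0.076, Mmp28 -1.348 to 0.279 and Timp3 -0.443 to 0.146. In treated against mock fl/fl skin they were Mmp14 -0.305 to 0.032. In fl/fl tumors against treated skin they were Mmp14 -0.569 to 0.135 and Mmp28 -1.39 to 0.149. In treated against mock ΔK14 skin they were Mmp2 -0.111 to 2.904, Mmp28 -2.624 to 1.191 and Timp3 -0.094 to 1.656. In ΔK14 tumors against mock skin they were Mmp28 -1.103 to 2.379 and Mmp2 -2.129 to 0.883. In the interaction with mock skin they were Mmp2 -0.643 to 2.348. In the interaction with treated skin they were Mmp2 -0.489 to 0.285, Mmp10 -0.023 to 1.196 and Timp2 -0.247 to 0.591. In the interaction with mock skin Mmp2 went to -0.179 with the identical columns as 2 libraries and to -0.242 without mock replicate 1 of both genotypes. RLE scaling turned no direction.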
